A study of Mus musculus with 4 samples.

Results

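The genes described here make sterols and fatty acids: 18 enzymes of cholesterol synthesis, 4 genes that regulate or move sterols, and 6 enzymes of fatty acid synthesis. They were taken by gene symbol from the table of counts per RefSeq gene, in which all 28 were found among 24016 genes. The RNA came from colons of C57BL/6 mice raised germ-free, 7 weeks old, and was sequenced as 4 libraries, 1 for each condition. The mice had been gavaged with the probiotic Lactobacillus rhamnosus GG (LGG), with Escherichia coli or with phosphate-buffered saline (PBS), or were untreated, and all were bought germ-free, so that no group carried a resident flora. A 4 cm length of colon was excised 4 h after the gavage. Each gavage was given to 4 mice, and the labels do not say whether their RNA was pooled; no gavage is given for the untreated library. Total counts were 29899371 (LGG), 29368008 (E. coli), 16289580 (PBS) and 27220697 (untreated).

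Cholesterol is built from acetyl-CoA by way of mevalonate, farnesyl diphosphate and squalene, and fatty acids from acetyl-CoA by way of malonyl-CoA. Both routes are controlled by the SREBP transcription factors, which are held in the endoplasmic reticulum by INSIG proteins when sterols are plentiful and are released to the nucleus when sterols are scarce. In the gut, the epithelium makes cholesterol of its own beside what it takes up, and Scd1 and Fasn are also abundant in adipocytes, which can come with a colon piece as attached fat.

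SREBPs act at promoters together with NF-Y, which binds CCAAT, and with Sp1, which binds the GC box GGGCGG, so the promoters of members were searched for these letters on both strands. The search also took in the sterol regulatory element TCACNCCAC, a longer form of it with 1 more base at its 5′ end, and the E-box CACGTG. RefSeq promoter windows of GRCm38.p6, each 250 bases before and 50 bases after a gene's start, were found for 22 of the 28 members. Below are the 200 bases before the start of 6 members, 5′ to 3′ on the gene's strand, with every match to a motif in capitals. Hmgcs1 is shown because it was the only member with TCACNCCAC, Msmo1 because it differed most between the gavaged and the untreated libraries, and Mvk because it had the most CCAAT boxes. Idi1 stands for the mevalonate enzymes, and Fasn and Elovl6 for the fatty acid genes; all but Hmgcs1 were chosen after the values were seen.
Hmgcs1 (chr13:119690151-119690350, + strand): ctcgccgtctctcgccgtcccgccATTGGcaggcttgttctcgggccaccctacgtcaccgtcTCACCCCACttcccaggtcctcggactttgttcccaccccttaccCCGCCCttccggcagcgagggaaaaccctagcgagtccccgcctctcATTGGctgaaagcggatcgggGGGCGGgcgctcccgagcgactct
Msmo1 (chr8:64733579-64733778, - strand): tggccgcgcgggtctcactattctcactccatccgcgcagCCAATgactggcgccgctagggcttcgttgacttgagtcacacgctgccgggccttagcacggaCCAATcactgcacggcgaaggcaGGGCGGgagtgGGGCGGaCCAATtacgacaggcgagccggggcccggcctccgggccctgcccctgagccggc
Idi1 (chr13:8885406-8885605, + strand): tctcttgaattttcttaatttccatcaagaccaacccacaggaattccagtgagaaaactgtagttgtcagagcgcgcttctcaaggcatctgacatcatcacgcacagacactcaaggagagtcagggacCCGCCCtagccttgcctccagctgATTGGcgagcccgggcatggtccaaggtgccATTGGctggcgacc
Mvk (chr5:114444069-114444268, + strand): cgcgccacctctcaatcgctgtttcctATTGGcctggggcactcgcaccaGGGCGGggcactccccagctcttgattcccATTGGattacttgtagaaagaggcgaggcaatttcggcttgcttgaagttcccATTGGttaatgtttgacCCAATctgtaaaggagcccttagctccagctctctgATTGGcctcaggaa
Fasn (chr11:120824548-120824747, - strand): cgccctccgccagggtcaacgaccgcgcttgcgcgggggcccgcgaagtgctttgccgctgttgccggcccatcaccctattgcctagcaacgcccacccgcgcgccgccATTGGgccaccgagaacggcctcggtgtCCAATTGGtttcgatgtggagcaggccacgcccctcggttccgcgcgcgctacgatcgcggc
Elovl6 (chr3:129532186-129532385, + strand): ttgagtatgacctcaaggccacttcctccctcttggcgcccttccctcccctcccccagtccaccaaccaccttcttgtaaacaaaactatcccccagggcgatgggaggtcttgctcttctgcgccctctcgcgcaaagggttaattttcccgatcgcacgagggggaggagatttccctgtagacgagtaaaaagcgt

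Among the 15 sterol enzymes with a window, 14 held CCAAT or its complement, against 42.2% of the 10807 genes measured in this colon that had a window and 41.1% of all 27025 genes in the table. A pair or more of CCAAT boxes in 1 window was found in 9 of the 15, and in 1727 of the 10807 genes measured in colon. GGGCGG was also held by 14 of the 15, against 66.7% of the genes measured in colon and 38.2% of all genes. Acat2 was the sterol enzyme without CCAAT, and Pmvk the one without GGGCGG. All 3 windowed regulators (Insig1, Srebf1 and Srebf2) held both motifs. Of the 4 windowed fatty acid genes Fasn and Acly held CCAAT, Acly also held GGGCGG, and Acaca and Elovl6 held none of the motifs. A gene with several windows was counted when any of them held the motif. By first window alone, CCAAT was in 13 of the 15 sterol enzymes, without Dhcr7, and in 38.1% of genes measured in colon. GGGCGG was then in 2 of the 3 regulators, without Srebf1, and in 62.8% of genes measured in colon. TCACNCCAC was found in 1.39% of the genes measured in colon and the E-box in 11.4%; of the members, Hsd17b7, Sc5d, Dhcr7 and Insig1 held the E-box. The longer form of the element was found in no member and in 0.222% of the genes measured in colon. These matches describe letters in a window and say nothing of binding in these mice.

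Levels are given as counts per 1000000 counts of the library (CPM), scaled by trimmed mean of M-values (TMM), and a difference between 2 libraries as a log2 ratio with a 95% counting interval. A gene was taken as tested when its mean over the 4 libraries was at least 1 CPM, which 14450 genes reached, and 27 of the 28 members. It was called higher or lower when it differed by at least 1.5-fold with an interval that excluded 0; a looser rule, a log2 ratio of at least 0.32 in size, was used beside it because most members differed by less. No member reached 2-fold in any comparison. By the 2-fold rule 0.18% of all tested genes were higher and 0.0969% lower in LGG against PBS. The corresponding shares were 0.173% and 0.242% for E. coli against PBS, and 0.263% and 0.0969% for LGG against E. coli. Against untreated they were 0.457% and 0.588% in LGG, 0.824% and 1.53% in E. coli, and 0.664% and 0.782% in PBS. With 1 library per condition there is no replicate spread and no test, so every difference is one between libraries, and the intervals cover counting error only.

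The member that failed the expression filter was Hmgcs1, the enzyme that makes HMG-CoA for mevalonate. Its row is placed on 13_random, from 114527 to 132436 in mm9, is marked with 2 copies in the genome, and holds 8 counts (LGG), 12 (E. coli), 8 (PBS) and 10 (untreated). Those counts correspond to 0.273, 0.413, 0.499 and 0.350 CPM. Reads of a gene listed with 2 copies cannot be assigned with certainty, so these values do not give the level of Hmgcs1. It was therefore not ranked against the other enzymes of the route. No difference of Hmgcs1 was readable: its LGG against PBS interval ran from -2.48 to 0.75. Each of the other members is listed with 1 copy.

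Per kilobase of transcript, Scd2 had the highest mean level of all members at 266 CPM per kb, followed by Msmo1 at 114, Fdps at 109 and Acly at 105. At the other end, and leaving out Hmgcs1, were Hsd17b7 at 7.99 CPM per kb, Acaca at 10.3 and Elovl6 at 18.6. The enzymes of 1 route were thus far from equal in RNA level, and the members ranged from 31.8 CPM (Tm7sf2) to 1447 CPM (Scd2) without correction for length.

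**Figure D1:**
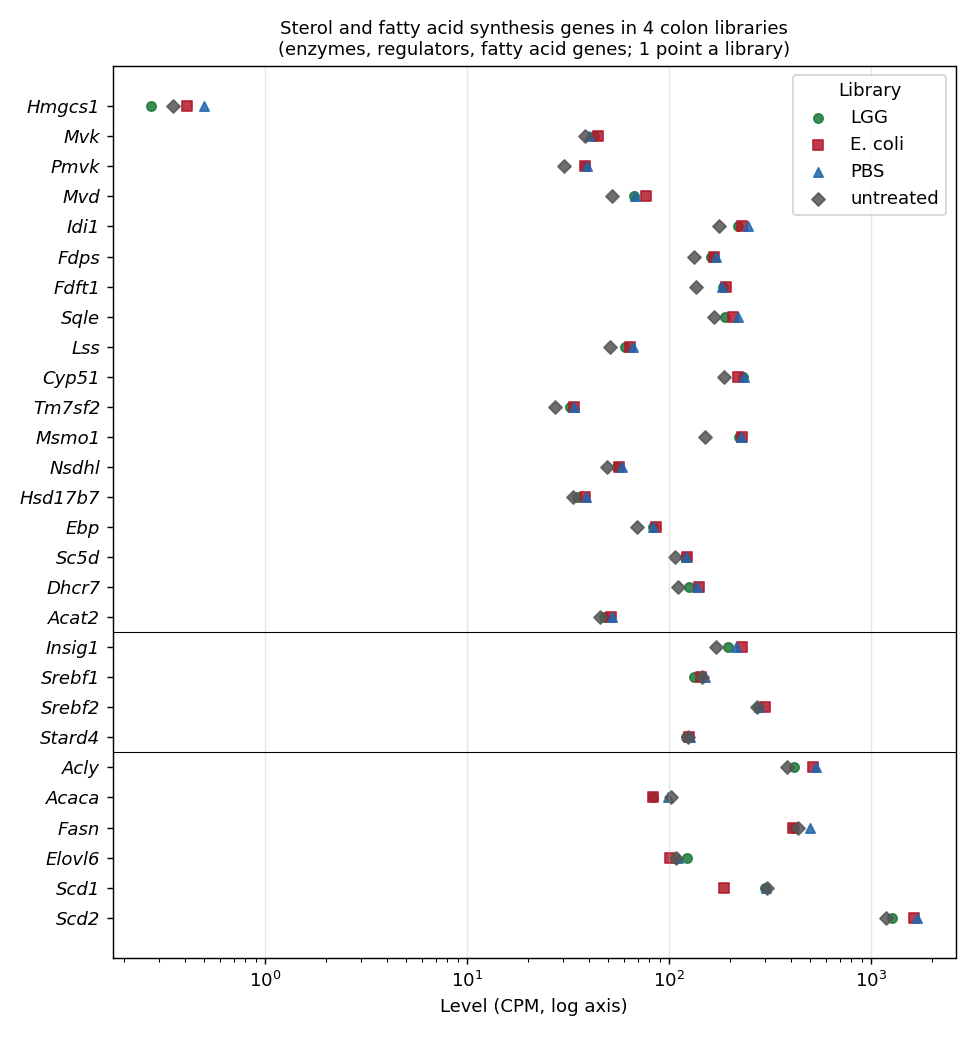
Level of each of the 28 members in CPM on a log axis, with 1 point for each library; lines separate sterol enzymes, regulators and fatty acid genes. Under TMM scaling the untreated library (grey diamonds) is the lowest point for all 17 tested sterol enzymes, and the E. coli library (red squares) stands apart for Scd1, at 186 CPM.

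The clearest difference among the sterol enzymes set all 3 gavaged libraries apart from the untreated library under TMM scaling, though not for LGG under a scaling to epithelial genes that is given with the cell markers. For 17 of 17 tested enzymes the untreated library was the lowest of the 4, while it was the lowest for 34.2% of all tested genes. Summed over the 18 enzymes, the level was 1916 CPM after LGG, 1998 after E. coli and 2020 after PBS, against 1563 CPM in the untreated library. In bulk tissue, fewer cells of a type and less RNA per cell cannot be told apart. The gavaged libraries differed little among themselves, and which of them was highest varied by gene: E. coli for 7 enzymes and PBS for 10.

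The early enzymes turn mevalonate into farnesyl diphosphate. Mvk, the kinase that phosphorylates mevalonate, had 42.7 CPM after LGG, 44.5 after E. coli and 40.4 after PBS, against 38.4 CPM in the untreated library. Pmvk, the kinase of the next step, had 38.2 CPM after LGG, 38.2 after E. coli and 39.4 after PBS, against 30.3 CPM in the untreated library. The 3 gavaged libraries lay close together for Pmvk, and for Mvk the PBS library was nearly as low as the untreated one. Mvd, the decarboxylase that completes isopentenyl diphosphate, had 66.8 CPM after LGG, 76.9 after E. coli and 68.0 after PBS, against 52.4 CPM in the untreated library. Idi1, which isomerises isopentenyl diphosphate, had 221 CPM after LGG, 229 after E. coli and 246 after PBS, against 177 CPM in the untreated library. Mvd was highest after E. coli and Idi1 after PBS. Fdps, which makes farnesyl diphosphate, had 161 CPM after LGG, 166 after E. coli and 170 after PBS, against 133 CPM in the untreated library.

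Squalene is made and closed into the first sterol by the next 3 enzymes. Fdft1, squalene synthase, had 185 CPM after LGG, 192 after E. coli and 183 after PBS, against 135 CPM in the untreated library. Sqle, the epoxidase that is a rate-controlling step, had 189 CPM after LGG, 208 after E. coli and 220 after PBS, against 166 CPM in the untreated library. Sqle thus stood in steps, with LGG between PBS and untreated, while Fdft1 was level across the gavaged libraries. Lss, which cyclises squalene epoxide to lanosterol, had 60.5 CPM after LGG, 64.4 after E. coli and 66.4 after PBS, against 50.9 CPM in the untreated library.

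From lanosterol on, methyl groups are removed and double bonds moved and reduced. Cyp51, the lanosterol demethylase, had 232 CPM after LGG, 219 after E. coli and 234 after PBS, against 186 CPM in the untreated library. Tm7sf2, a sterol reductase of the step after it, had 32.3 CPM after LGG, 33.7 after E. coli and 33.9 after PBS, against 27.3 CPM in the untreated library. Msmo1, the methyl sterol oxidase, had 222 CPM after LGG, 230 after E. coli and 226 after PBS, against 151 CPM in the untreated library. Msmo1 (NM_025436, chr8:67196942-67212375 in mm9, - strand) showed the widest gap of all sterol enzymes, with the 3 gavaged libraries close to each other and well above the untreated one. Nsdhl and Hsd17b7 act with Msmo1 in removing the methyl groups. Nsdhl had 55.5 CPM after LGG, 56.3 after E. coli and 58.8 after PBS, against 49.3 CPM in the untreated library. Hsd17b7 had 34.9 CPM after LGG, 38.6 after E. coli and 38.9 after PBS, against 33.5 CPM in the untreated library. For Hsd17b7 the LGG library was close to the untreated one.

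The closing steps are those of Ebp, Sc5d and Dhcr7. Ebp, the sterol isomerase, had 83.1 CPM after LGG, 86.2 after E. coli and 83.0 after PBS, against 69.3 CPM in the untreated library. Sc5d, the lathosterol desaturase, had 119 CPM after LGG, 123 after E. coli and 122 after PBS, against 107 CPM in the untreated library. Both were even across the gavaged libraries. Dhcr7, which reduces 7-dehydrocholesterol to cholesterol, had 126 CPM after LGG, 141 after E. coli and 138 after PBS, against 111 CPM in the untreated library. Acat2, which makes the acetoacetyl-CoA that enters the route, had 47.8 CPM after LGG, 51.4 after E. coli and 52.3 after PBS, against 45.4 CPM in the untreated library. In Dhcr7 and Acat2 the LGG library lay between the untreated library and the other 2.

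As log2 ratios under TMM scaling, all 17 tested enzymes were above 0 in each gavaged library against untreated, where 49.7% (LGG), 51.0% (E. coli) and 50.3% (PBS) of all tested genes were, and none was below 0, where 50.3%, 49.0% and 49.7% were. Their median was 0.25 in LGG against untreated, 0.32 in E. coli against untreated and 0.33 in PBS against untreated, where the median of all tested genes was 0.00 in each. These 3 comparisons share the untreated library, so a low value there enters all of them. The counting interval lay above 0 for 15 enzymes in LGG, 17 in E. coli and 16 in PBS, where 24.7%, 24.9% and 20.3% of all tested genes had one. It lay below 0 for none, where 23.0%, 22.4% and 18.3% of all tested genes had such an interval; the enzymes whose interval included 0 were Hsd17b7 and Acat2 in LGG and Mvk in PBS. The differences were small: past 1.5-fold stood only Msmo1, at 0.61 (0.55 to 0.66) in E. coli and 0.59 (0.52 to 0.65) in PBS, and no enzyme in LGG, where Msmo1 was at 0.56 (0.50 to 0.61). Of all tested genes, 1.64% (LGG), 2.82% (E. coli) and 2.37% (PBS) were higher and 3.62%, 5.48% and 3.55% lower by that rule. Msmo1 was at the edge of the rule: with library totals it was at 0.52 in E. coli and 0.50 in PBS, and scaled to Epcam and Vil1 at 0.42 and 0.41, so that both calls were lost. With upper-quartile factors the call in PBS was lost, at 0.58.

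By the looser rule, 4 of 17 enzymes were higher in LGG against untreated (6.48% of all tested genes), 9 in E. coli (7.31%) and 9 in PBS (6.19%), and none was lower, where 10.8%, 12.0% and 9.1% of all genes were. The 4 in LGG were Pmvk (0.34), Mvd (0.35), Fdft1 (0.45) and Msmo1 (0.56). Fdft1 was also at 0.50 (0.44 to 0.56) in E. coli and at 0.44 (0.37 to 0.50) in PBS, and Idi1 was at 0.37 (0.32 to 0.42) in E. coli and 0.47 (0.41 to 0.53) in PBS. Mvd reached 0.55 (0.46 to 0.65) in E. coli. The 5 tested mevalonate enzymes had medians of 0.32 (LGG), 0.34 (E. coli) and 0.38 (PBS), and the 11 enzymes from squalene synthase on 0.24, 0.31 and 0.32.

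**Figure D2:**
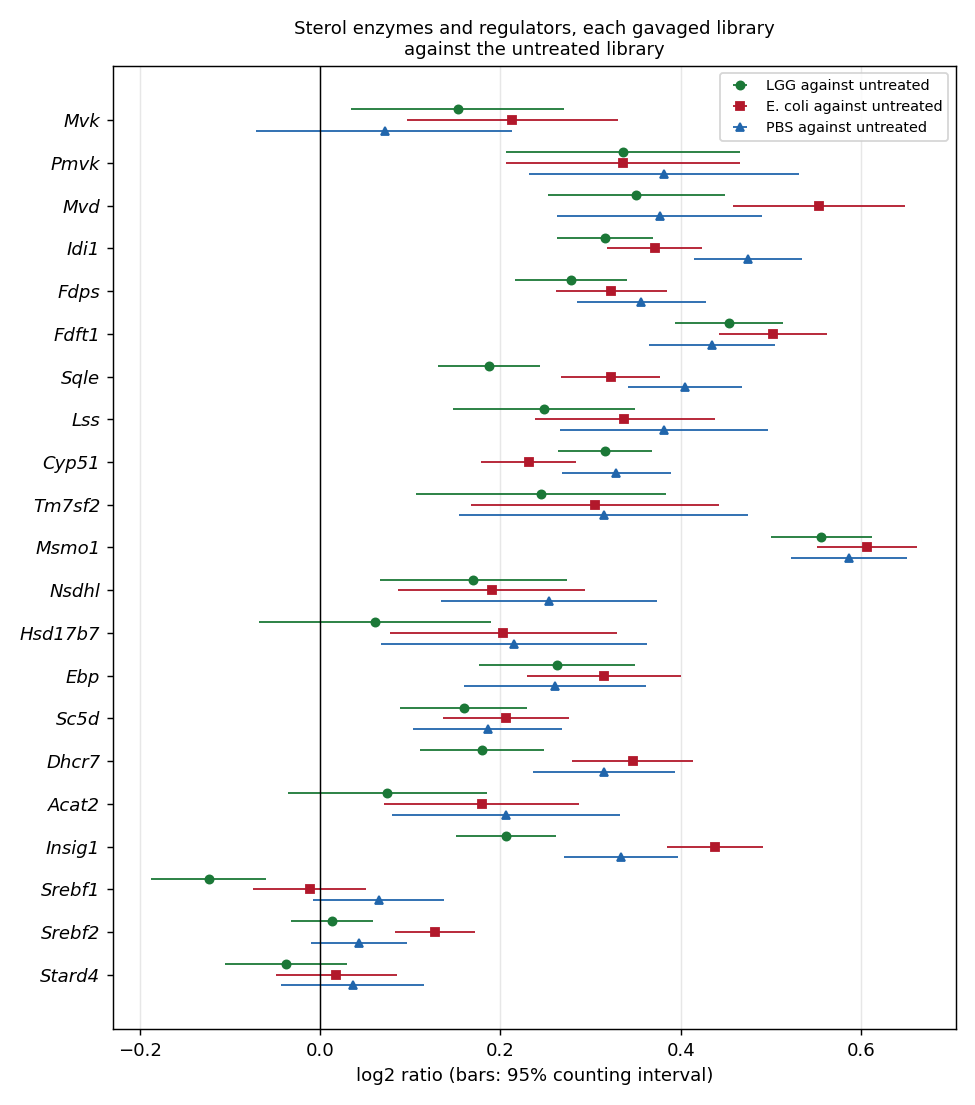
Log2 ratio of each tested sterol enzyme and regulator in the LGG, E. coli and PBS libraries against the untreated library; bars are 95% counting intervals. Under TMM scaling all 17 enzymes and Insig1 lie right of 0 in the 3 comparisons (scaled to Epcam and Vil1, the enzyme median is 0.00 in LGG), with Msmo1 farthest at 0.56 to 0.61, while Srebf1, Srebf2 and Stard4 lie near 0.

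The regulators did not all go with the enzymes. Insig1, the sterol-sensing retention protein and itself an SREBP target, had 196 CPM after LGG, 231 after E. coli and 214 after PBS, against 170 CPM in the untreated library. Its log2 ratios of 0.21 (LGG), 0.44 (E. coli) and 0.33 (PBS) against untreated lay in the range of the enzymes. Srebf2, which encodes the SREBP of the sterol route, had 274 CPM after LGG, 297 after E. coli and 280 after PBS, against 272 CPM in the untreated library. Its largest ratio against untreated was 0.13 (0.08 to 0.17), in E. coli. Srebf1, which encodes the SREBP of the fatty acid route, had 133 CPM after LGG, 144 after E. coli and 151 after PBS, against 145 CPM in the untreated library, and was thus lowest after LGG. Stard4, a cytosolic sterol transfer protein, was even. It had 121 CPM after LGG, 126 after E. coli and 127 after PBS, against 124 CPM in the untreated library; its 3 intervals against untreated all included 0.

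Other genes of the SREBP pathway were read from a list of 18, all of them tested. In PBS against untreated 10 were above 0 and 8 below, with a median of 0.04; the medians were 0.03 in LGG and 0.09 in E. coli. Past 1.5-fold none of the 18 was called in LGG or E. coli against untreated and 1 was higher in PBS, where 1.64%, 2.82% and 2.37% of all tested genes were higher. By the looser rule 1 was higher and 1 lower in LGG, 4 were higher and 1 lower in E. coli, and 4 were higher in PBS (6.48%, 7.31% and 6.19% of all tested genes higher; 10.8%, 12.0% and 9.1% lower). In the isoprenoid branch, which uses farnesyl diphosphate for prenyl groups, ubiquinone and dolichol, none of 12 genes passed 1.5-fold in any of the 6 comparisons. Per comparison, 0.471% to 2.82% of all tested genes were higher and 0.789% to 5.48% lower. By that rule at most 1 of 17 sterol enzymes was called in any comparison, so the count does not set these lists apart. Icmt, a methyltransferase of prenylated proteins, was at -0.07 and Fnta, a prenyltransferase subunit, at -0.07 in PBS against untreated. The isoprenoid median stayed between -0.04 and 0.06.

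Past 1.5-fold, genes of sterol export and uptake differed in both directions in PBS against untreated, and only downward in LGG and E. coli. Abca1, an LXR target that exports cholesterol, had 14.1 CPM after LGG, 14.5 after E. coli and 17.4 after PBS, against 29.7 CPM in the untreated library. Its log2 ratios were -1.08 (-1.25 to -0.91) in LGG, -1.03 (-1.20 to -0.86) in E. coli and -0.77 (-0.97 to -0.57) in PBS, so Abca1 was lower where the sterol enzymes were higher. Npc1l1, the intestinal cholesterol importer, was at -0.96 (-1.25 to -0.67) in E. coli and -0.99 (-1.37 to -0.64) in PBS, and at -0.43 in LGG. Soat2, which esterifies cholesterol, was at -0.66 (-1.36 to -0.00) in E. coli, with 1.10 CPM against 1.75 CPM in the untreated library. In PBS it was at nearly the same ratio, -0.63 (-1.51 to 0.16), and was not called. Abcg5 and Abcg8, the paired subunits of a sterol exporter, were higher in PBS against untreated at 0.90 (0.52 to 1.29) and 0.93 (0.43 to 1.44). Their levels after PBS were 7.48 and 4.42 CPM, the highest of the libraries. In LGG against PBS they were lower past 1.5-fold, at -0.64 (-1.01 to -0.28) and -0.86 (-1.36 to -0.37). They were the 2 of 15 genes lower there and none was higher (0.789% and 0.782% of all tested genes). In E. coli against PBS they were at -0.48 and -0.50. In PBS against untreated 2 of 15 genes were higher and 2 lower (2.37% and 3.55% of all tested genes), with a list median of -0.06. In LGG against untreated none was higher and 1 was lower (1.64% and 3.62%). In E. coli against untreated none was higher and 3 were lower (2.82% and 5.48%).

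Markers of cell types moved between the same libraries. The summed level of 12 colonocyte markers was 32237 CPM after LGG, 30421 after E. coli and 30588 after PBS, against 28287 CPM in the untreated library. Muc2 was the largest part of each sum and ran against its rise. It had 9720 CPM after LGG, 8174 after E. coli and 8281 after PBS, against 10512.5 CPM in the untreated library. The median ratios of the 12 markers against untreated were 0.25, 0.24 and 0.22. Of these markers 10 (LGG), 9 (E. coli) and 9 (PBS) were above 0 against untreated; Slc26a3, the chloride exchanger of surface colonocytes, was at 0.84, 0.96 and 0.87 and the water channel Aqp8 at 0.77, 1.04 and 0.73, and none of the 12 was at 0. Other markers went the other way: Cdx2, an intestinal transcription factor, was at -0.07 in LGG and was called lower in E. coli (-0.68) and PBS (-0.66), the mucin Muc2 was at -0.11, -0.36 and -0.34, and the carbonic anhydrase Car1 was at 0.19, -0.24 and -0.12. Enteric glia and neuron markers had medians of -0.38 (LGG), -0.63 (E. coli) and -0.45 (PBS). Of 13 tested, 12, 13 and 12 were below 0, where 50.3%, 49.0% and 49.7% of all tested genes were. Cryab was above 0 in LGG (0.28) and PBS (0.17). Smooth muscle markers had medians of -0.20, -0.30 and -0.15, but the list was split in LGG and PBS. Of its 8 markers, 5, 8 and 6 were below 0. Cnn1 was at 0.18 in LGG and 0.04 in PBS, and Tagln at 0.12 and 0.04. Des was at 0.04 in LGG. Proliferation markers had medians of -0.09 (LGG), -0.09 (E. coli) and -0.15 (PBS), but the list was split. In all 3 comparisons Mki67, Top2a, Ccnb1 and Cdk1 were below 0, and Mcm2, Mcm5, Pcna and Tyms above. By the looser rule 3 of the 8 were lower in each, and 1 was higher in PBS. Mesothelial markers had medians of -0.79, -1.47 and -0.30, with 5, 5 and 4 of 6 below 0. Krt19, by far the most abundant of them at a mean of 3246 CPM, was above 0 in each, at 0.35, 0.24 and 0.27. Msln was at 0.22 (-0.07 to 0.51) in PBS. Pancreatic acinar markers summed to 46.8 CPM after LGG, 84.2 after E. coli and 22.9 after PBS, against 3.47 CPM in the untreated library. Small intestinal markers summed to 715 CPM after LGG, 490 after E. coli and 541 after PBS, against 725 CPM in the untreated library, but Fabp2 made up 464 of the 715 CPM after LGG. Their medians against untreated were -0.75 (LGG), -1.22 (E. coli) and -0.97 (PBS). Of 11 tested, 9, 10 and 10 were below 0, where 50.3%, 49.0% and 49.7% of all tested genes were. Past 1.5-fold 7, 9 and 8 were lower, where 3.62%, 5.48% and 3.55% of all tested genes were. Past 1.5-fold 1 was higher in each, where 1.64%, 2.82% and 2.37% of all tested genes were. That marker was Rbp2, at 0.94, 1.03 and 0.93. Fabp2 was also above 0 in LGG, at 0.49. With libraries scaled to the epithelial genes Epcam and Vil1, an alternative chosen after seeing the data, the median of the sterol enzymes was 0.00 in LGG, 0.13 in E. coli and 0.15 in PBS against untreated, where that scaling moved the median of all tested genes to -0.25, -0.18 and -0.18. The part of the cell mixture in the sterol result was not tested beyond that scaling.

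**Figure D3:**
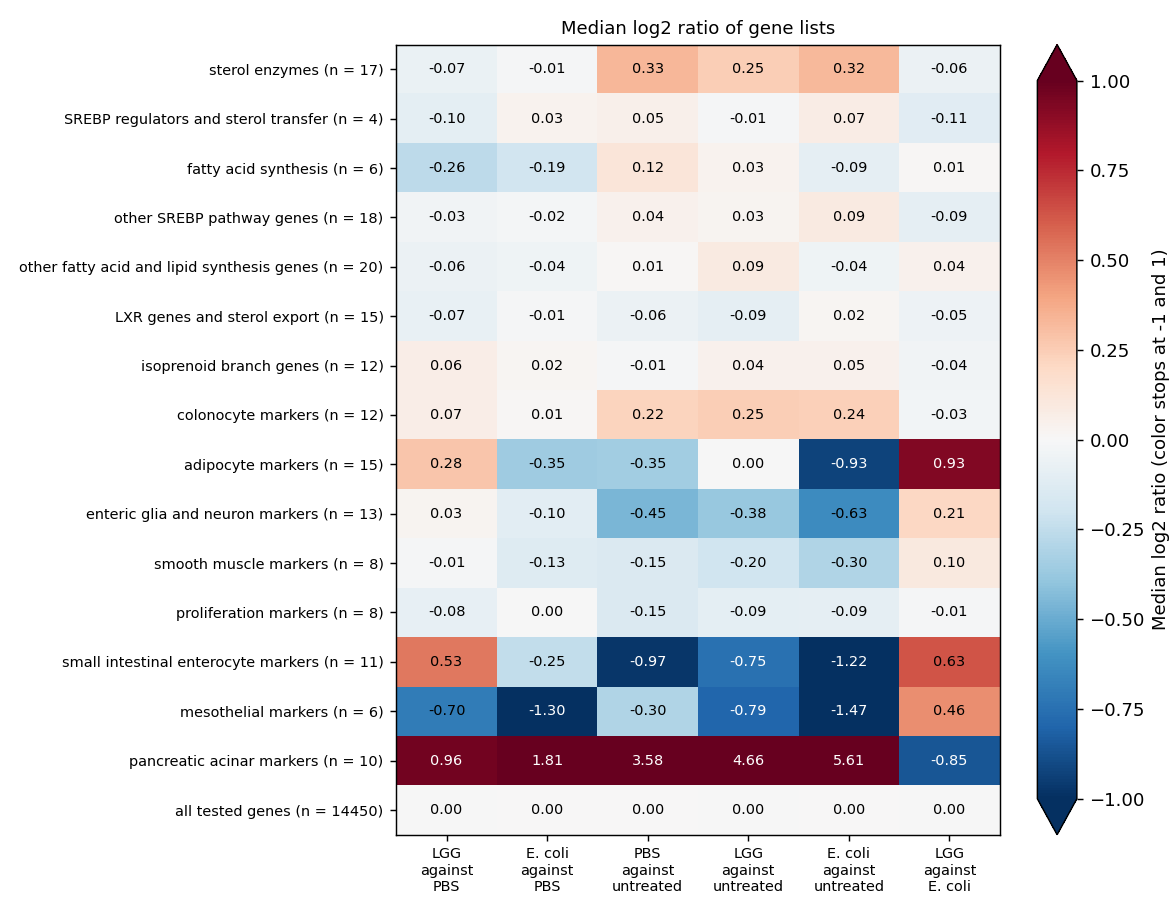
Median log2 ratio of the members and of other gene lists in the 6 comparisons, with the number of tested genes in brackets and all tested genes in the last row; red is higher and blue lower in the library named first, and the color stops at -1 and 1. The sterol enzymes read 0.25 to 0.33 against untreated and near 0 elsewhere, colonocyte markers 0.22 to 0.25 in the same columns, and adipocyte markers reach 0.93 in LGG against E. coli.

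Against PBS, the vehicle, the sterol enzymes were nearly level. In LGG against PBS 14 of 17 were below 0, where 50.7% of all tested genes were, with a median of -0.07, and none passed the looser rule in either direction (3.08% of all genes higher, 2.95% lower). The other 3 were above 0 (49.3% of all tested genes); 7 intervals lay below 0 (13.1%) and none above (14.3%). No member passed 1.5-fold in LGG against PBS, where 0.782% of all tested genes were higher and 0.789% lower. Sqle was the lowest at -0.22 (-0.28 to -0.16), followed by Idi1 at -0.16 (-0.22 to -0.10), Hsd17b7 at -0.15 and Dhcr7 at -0.14. In E. coli against PBS 7 were above 0 (50.7% of all tested genes) and 10 below (49.3%), 3 intervals lay above 0 (10%) and 3 below (8.93%), the median was -0.01, and none passed the looser rule (1.41% of all genes higher, 2.57% lower). Mvd at 0.18 (0.07 to 0.28) was the highest there, and Idi1 at -0.10 the lowest. Insig1 was at -0.13 (-0.19 to -0.07) in LGG and at 0.10 (0.04 to 0.16) in E. coli.

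Set side by side, LGG was below E. coli for 16 of the 17 enzymes, where 50.1% of all tested genes had a ratio below 0. Cyp51 was the exception at 0.08 (0.03 to 0.13), where 49.9% of all tested genes were above 0 and 16.4% had an interval above 0. The size was slight: the median was -0.06, 6 of the 16 had an interval below 0 (16.2% of all tested genes), and the lowest were Mvd at -0.20 (-0.29 to -0.11), Dhcr7 at -0.17 (-0.23 to -0.10) and Sqle and Hsd17b7 at -0.14 each. All 4 regulators were below 0 as well, with Insig1 at -0.23 (-0.28 to -0.18), Srebf1 at -0.11, Srebf2 at -0.11 and Stard4 at -0.06.

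The fatty acid genes did not move as one group. Acly and Scd2 were lowest in the untreated library, as the sterol enzymes were, while Acaca, Fasn, Elovl6 and Scd1 were lowest after E. coli. Of all tested genes, 21.4% were lowest after E. coli. Summed over the 6 genes the level was 2602 CPM after LGG, 2938 after E. coli and 3239 after PBS, against 2524 CPM in the untreated library, and Scd2 was the largest contributor to that sum in each library.

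Acly, which cleaves citrate to cytosolic acetyl-CoA and so feeds both routes, had 414 CPM after LGG, 516 after E. coli and 533 after PBS, against 383 CPM in the untreated library. Scd2, a stearoyl-CoA desaturase (NM_009128, chr19:44368166-44381352 in mm9, + strand), had 1266 CPM after LGG, 1639 after E. coli and 1692 after PBS, against 1192 CPM in the untreated library. In both genes E. coli and PBS formed a high pair, and LGG and untreated a low one. Acly was at -0.36 (-0.40 to -0.32) and Scd2 at -0.42 (-0.44 to -0.40) in LGG against PBS, the only members past the looser rule there. In E. coli against PBS both were at -0.05. In PBS against untreated Acly was at 0.48 (0.44 to 0.52) and Scd2 at 0.51 (0.48 to 0.53), and in LGG against untreated they were at 0.12 and 0.09.

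Acaca, the acetyl-CoA carboxylase that makes malonyl-CoA, had 83.6 CPM after LGG, 82.8 after E. coli and 99.2 after PBS, against 103 CPM in the untreated library. Fasn, which joins malonyl-CoA units into palmitate, had 415 CPM after LGG, 412 after E. coli and 501 after PBS, against 434 CPM in the untreated library. Both were lower in the 2 bacterial libraries than in either library without bacteria. Against PBS, Acaca was at -0.25 (-0.34 to -0.15) in LGG and -0.26 (-0.35 to -0.17) in E. coli, and Fasn at -0.27 (-0.31 to -0.23) and -0.28 (-0.32 to -0.24). These comparisons share the PBS library; against untreated, Acaca was at -0.30 (LGG) and -0.31 (E. coli), but Fasn only at -0.07 and -0.08. None of these differences passed the looser rule.

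Elovl6, which lengthens palmitate, had 123 CPM after LGG, 101 after E. coli and 111 after PBS, against 108 CPM in the untreated library. It was the only member that was highest after LGG, at 0.16 (0.08 to 0.24) against PBS and 0.29 (0.22 to 0.36) against E. coli, and in E. coli against PBS it was at -0.13 (-0.22 to -0.04).

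**Figure D4:**
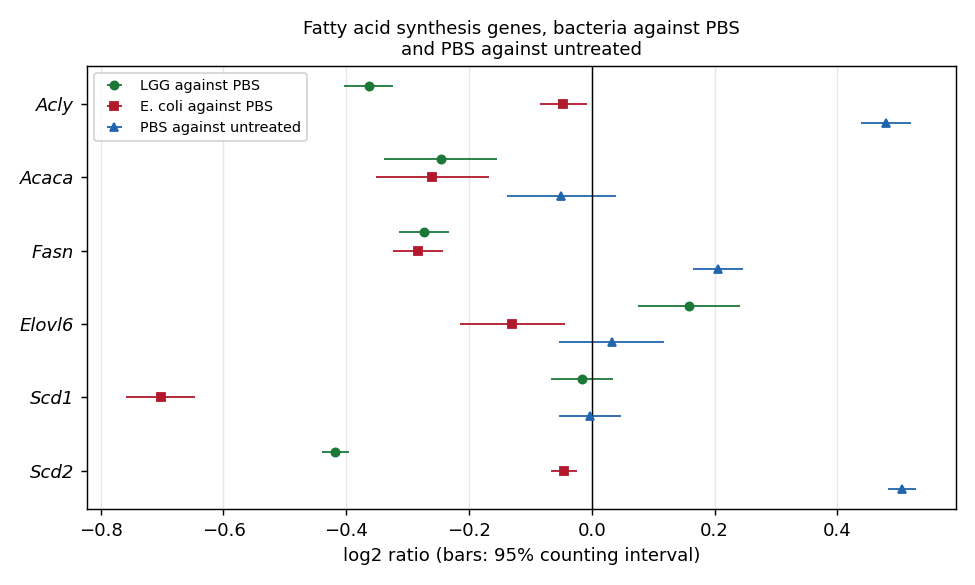
Log2 ratio of the 6 fatty acid genes in 3 comparisons, LGG and E. coli each against PBS, and PBS against untreated; bars are 95% counting intervals. Acly and Scd2 lie at -0.36 and -0.42 in LGG, Scd1 lies at -0.70 in E. coli and near 0 in the other comparisons, and Acaca and Fasn lie left of 0 in both bacterial libraries.

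The largest difference of any tested member was that of Scd1, the other stearoyl-CoA desaturase, which makes oleate (NM_009127, chr19:44468940-44482199 in mm9, - strand). Scd1 had 300 CPM after LGG, 186 after E. coli and 303 after PBS, against 304 CPM in the untreated library. The E. coli library was low and the other 3 were level. In E. coli against PBS the log2 ratio was -0.70 (-0.76 to -0.65), the only one of 27 tested members past 1.5-fold, where 0.997% of all tested genes were lower and 0.471% higher by that rule. In E. coli against untreated it was -0.71 (-0.75 to -0.66), the only member lower past 1.5-fold, where 5.48% of all tested genes were. Set against E. coli, the LGG library was at 0.69 (0.64 to 0.73), again the only member called, where 1.34% of all tested genes were higher and 0.844% lower. Scd2 stood on the other side in that comparison, at -0.37 (-0.39 to -0.35), and by the looser rule Scd1 and Scd2 were the members called higher and lower (3.86% and 3.25% of all tested genes). Of the stretches of 50 bases in the longest annotated Scd1 transcript, 3.03% also occur in Scd2. Stretches that nearly match were not counted, so this share does not settle how many reads could fall on both neighbouring genes.

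Adipocyte markers were lowest in the E. coli library as well. The 16 markers summed to 741 CPM after LGG, 559 after E. coli and 603 after PBS, against 756 CPM in the untreated library, and none was at 0 in any library. In E. coli against PBS 12 of 15 tested markers were below 0 (49.3% of all tested genes) and 6 were lower past 1.5-fold (0.997%), with a median of -0.35. In LGG against E. coli all 15 were above 0 (49.9%) and 9 were higher (1.34%), with a median of 0.93. Adipoq, the hormone of fat cells, had 10.8 CPM after LGG, 5.16 after E. coli and 8.91 after PBS, against 11.4 CPM in the untreated library. Plin1, which coats lipid droplets, had 4.92 CPM after LGG, 1.31 after E. coli and 3.36 after PBS, against 5.36 CPM in the untreated library. Both were lowest after E. coli. Both were lower in PBS than in untreated colon, a pair of libraries between which Scd1 was level. Lep, leptin, was at -1.52 (-2.79 to -0.41) and Fabp4, a fatty acid carrier, at -0.29 in E. coli against PBS. In PBS against untreated, the adipocyte median was -0.35, with 14 of 15 below 0 (49.7% of all tested genes), and Scd1 was at 0.00 (-0.05 to 0.05). The part of adipocytes in the Scd1 difference was not tested.

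Of 20 tested genes in a further list of fatty acid and lipid synthesis, Me1 and Thrsp were lower past 1.5-fold in E. coli against PBS and none was higher. Of all tested genes, 0.997% were lower and 0.471% higher. Me1, malic enzyme, which supplies NADPH for fatty acid synthesis, had 53.3 CPM after LGG, 29.8 after E. coli and 56.0 after PBS, against 58.7 CPM in the untreated library, a ratio of -0.91 (-1.05 to -0.77) in E. coli against PBS. Thrsp, a lipogenic regulator, had 18.8 CPM after LGG, 7.64 after E. coli and 14.0 after PBS, against 17.4 CPM in the untreated library, a ratio of -0.87 (-1.14 to -0.59). As with Scd1 and the adipocyte markers Adipoq and Plin1, the E. coli library was lowest for both. The part of adipocytes in the Me1 and Thrsp differences was not tested. In LGG against E. coli, Thrsp was at 1.30 and Me1 at 0.84, and in E. coli against untreated Thrsp was at -1.19 and Me1 at -0.98. Fads2, a desaturase of polyunsaturated fatty acids, stood on the other side, at 0.64 (0.57 to 0.70) in E. coli against untreated. In LGG against PBS none of the 20 passed (0.782% of all tested genes higher, 0.789% lower), and Pgd and Aacs, the most abundant, were at 0.02 and -0.12. The list median was -0.06 in LGG and -0.04 in E. coli, each against PBS.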

How the data were processed

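Colon RNA was converted to libraries with the Illumina TruSeq RNA kit, per the labels' protocols. TopHat2 and HOMER with the build mm9 are named in the submitters' processing notes, without versions or the role of each; strand use is not stated. Expected counts were deposited by the authors, in steps of 0.5 of unstated origin, for 24016 RefSeq genes; they were rounded to whole numbers. Reads of gene copies cannot be assigned with certainty.

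TMM factors came from edgeR 4.0.16 in R 4.3.3. Python 3.11.15 (numpy 2.4.6, pandas 2.3.3, scipy 1.17.1) gave CPM and log2 ratios with a prior of 0.5 counts; intervals are exact Clopper-Pearson intervals on the 2 counts, and figures were drawn with matplotlib 3.10.9. The call rule was checked on simulated counts that held counting error only. That check cannot show how the rule behaves with variation between animals or libraries. The labels name no molecular identifiers, so PCR copies may be counted as molecules. The members, the 12 other lists and the rules were chosen with earlier results of these data known. All members are named; of other lists, up to 4 genes past 1.5-fold, or the 2 most abundant where none passed, could be named in a comparison, and Adipoq, Plin1, Lep and Fabp4 wherever adipocyte markers are described. Alternatives were library totals, DESeq2 1.42.0 and upper-quartile scaling, other filters, a prior of 5 counts, other folds, unrounded counts, the untreated library as control, and, added after seeing the data, scaling to Epcam and Vil1. Some genes of the other SREBP list are not reported here by name.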

Additional observations from a re-analysis of the deposited data

How the results depend on the processing

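With DESeq2 or upper-quartile factors, a prior of 5 counts or unrounded counts, all member log2 ratios stayed inside their counting intervals; the count past 1.5-fold in PBS against untreated was 0 with upper-quartile factors, since Msmo1 lay at the threshold. No paired analysis was possible because each condition has 1 library. Library totals moved the median of all tested genes by up to -0.10 (LGG against untreated); that count was then 0, and 1 in E. coli against untreated, against 1 and 2 with TMM, since the calls of Msmo1 were lost. Library totals gave fatty acid medians against untreated of -0.0657 (LGG), -0.172 (E. coli) and 0.0289 (PBS), where TMM gave 0.0338, -0.0873 and 0.119. With the untreated library as control in place of PBS, the LGG medians were 0.248 for sterol enzymes and 0.0338 for fatty acid genes, the E. coli medians 0.322 and -0.0873, and 2 members passed in E. coli. The 2-fold rule left 0 members in each of the 6 comparisons. The looser rule (log2 ratio of at least 0.32) gave 2 for LGG against PBS (both lower), 1 for E. coli against PBS (lower), 2 for LGG against E. coli (1 higher, 1 lower), and 4 (LGG, all higher), 13 (E. coli, 12 higher and 1 lower) and 12 (PBS, all higher) against untreated.

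Scaled to Epcam and Vil1, an alternative chosen after seeing the data, sterol medians against untreated were 0.0 (LGG), 0.134 (E. coli) and 0.151 (PBS), and fatty acid medians -0.214, -0.276 and -0.0582; the fatty acid median was -0.331 for LGG against PBS, and for LGG against E. coli it was -0.0477. The counts past 1.5-fold were then 1 (E. coli) and 0 (PBS) against untreated. The causes of these shifts were not tested. Among the members, only Hmgcs1 had too few counts to be read, on a row listed with 2 copies.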
